A study of Mus musculus with 8 samples.

Results

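A pair of knockouts at the same mouse locus was compared directly: cells in which the transcription factor gene Evx1 was the labelled target (EVX1 KO) and cells in which the neighbouring long noncoding RNA Evx1as was the target (Evx1as KO). All 12971 genes that reached 1 FPKM in at least 2 of these 6 libraries were compared, of 38610 symbols in the deposited table. FPKM is the number of fragments of a transcript scaled to its length and to the size of the library. Each group held 3 libraries of CJ9 cells, a mouse embryonic stem cell line (strain 129S4/SvJae), labelled as day 4 after leukemia inhibitory factor was withdrawn. This cytokine holds the cells undifferentiated, so the cultures were differentiating with no lineage imposed by an added inducer that the labels name. According to the series title the knockouts were made by CRISPR, and the edited bases and the clones used are unstated in the labels. The 2 wild-type (WT) libraries of the series, from the same line, labelled day and treatment, are given beside the knockouts and entered no test. The labels disagree on 2 of the libraries: EVX1 KO replicates 2 and 3 are tagged day 4, but their growth and extraction protocols give day 6, while the protocols of the other 6 libraries of the series give day 4. Which day holds for these 2 libraries cannot be told from the labels, so genotype and day cannot be told apart in them. EVX1 KO replicate 1 is the one library of its group with no such conflict. Results are therefore also given for that library alone against the 3 Evx1as KO libraries, a fit chosen after the data were seen, in which its spread is assumed to be that of the other group. Nothing in the labels says that replicates were separate cultures, so p-values measure only the spread between these libraries, which may be technical in part.

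The primitive streak is the part of the embryo where epiblast cells leave the epithelium and become mesoderm or definitive endoderm. Wnt, BMP, Nodal and FGF signals start and pattern it, and T-box, homeobox and GATA factors carry out the programme. Evx1 encodes a homeobox factor of the posterior streak. Evx1as is transcribed from the opposite strand next to it, and long noncoding RNAs in this position are often expressed together with their coding neighbour. The comparison sets the cells labelled as lacking the protein gene beside those labelled as lacking the RNA.

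The sequences just before the starts of the targeted pair and of Mesp1, a streak gene with one of the largest differences, are shown so that the locus and one strongly different gene can be read. They are the 250 bases before the start of each gene in RefSeq on GRCm38.p6, written in the direction of the gene. Capitals mark 3 motifs searched on both strands: TCACAC, a core site of T-box factors such as Brachyury and Eomes; CTTTGAT, a site of the TCF/LEF factors of the Wnt pathway; and TAATTA, a palindrome bound by many homeodomain factors, which reads alike on both strands.
Evx1 (chr6:52313248-52313497, plus strand): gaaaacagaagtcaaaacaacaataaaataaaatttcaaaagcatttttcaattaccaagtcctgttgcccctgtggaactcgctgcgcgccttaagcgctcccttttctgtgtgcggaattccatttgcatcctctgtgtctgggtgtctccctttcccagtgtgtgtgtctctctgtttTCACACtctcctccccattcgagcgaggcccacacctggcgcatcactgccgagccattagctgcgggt
Evx1as (chr6:52314833-52315082, minus strand): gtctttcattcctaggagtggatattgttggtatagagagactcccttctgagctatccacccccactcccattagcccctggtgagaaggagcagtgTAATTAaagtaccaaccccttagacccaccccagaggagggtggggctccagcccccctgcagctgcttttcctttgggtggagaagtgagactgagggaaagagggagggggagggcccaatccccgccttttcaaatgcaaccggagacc
Mesp1 (chr7:79793591-79793840, minus strand): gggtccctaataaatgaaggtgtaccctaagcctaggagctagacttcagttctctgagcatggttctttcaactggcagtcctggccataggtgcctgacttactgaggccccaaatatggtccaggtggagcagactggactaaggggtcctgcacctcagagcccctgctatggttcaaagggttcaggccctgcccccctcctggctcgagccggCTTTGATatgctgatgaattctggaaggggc
The stretch before Evx1 held 1 TCACAC, that before Evx1as held 1 TAATTA, and that before Mesp1 held 1 CTTTGAT. In the GENCODE annotation of GRCm38 the first exon of Evx1as (chr6:52314771-52314832) lies in the first intron of Evx1. Its second exon (chr6:52313304-52313570) covers most of the Evx1 stretch shown above and the start of the first exon of Evx1 (chr6:52313498-52314271). The deposited table uses other coordinates, so positions from it are given separately. There Evx1 spans chromosome 6, 52263491 to 52268372, and Evx1as 52258382 to 52264826, an overlap of 1336 bp. Whether reads from the overlap were told apart by strand is unknown, since no source used here gives the strand setting of the counting.

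The targeted pair was read first. Evx1as, listed as 5730457N03Rik, stood at 5.01, 8.81 and 7.39 FPKM in EVX1 KO and at 0.0549, 0.104 and 0.0485 in Evx1as KO. The WT libraries held 5.36 and 6.75. The RNA was thus near 0 in the 3 libraries labelled as its knockout and at a WT level in the others (log2 fold change of 2.89 ± 0.19, standard error, n = 3 against 3, limma adjusted p = 4.35e-04). Evx1 stood at 26.3, 20.8 and 31.7 FPKM in EVX1 KO, against 2.45, 3.84 and 0.541 in Evx1as KO, with WT at 21.97 and 31.2. Evx1 transcript was therefore higher in the libraries labelled EVX1 KO than in Evx1as KO (log2 fold change of 3.19 ± 0.38, adjusted p = 0.00247), and its EVX1 KO values spanned both WT values. In the fit of EVX1 KO replicate 1 alone, the log2 fold change of Evx1 was 3.21 (adjusted p = 0.0553) and that of Evx1as 2.49 (0.0270). Evx1 transcript gives no check of the label EVX1 KO, which is used here as the name of those libraries. Protein was not measured.

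Fold changes here are EVX1 KO minus Evx1as KO on log2(FPKM + 1), a scale that understates differences of genes expressed at a low level. Read depth is not given by the FPKM table. Summed FPKM lay between 531523 and 587798, and 12244 to 12442 genes reached 1 FPKM in each library. Across genes, which are not independent replicates, libraries of one knockout correlated at r between 0.979 and 0.987, and libraries of different knockouts at 0.951 to 0.969. Some libraries stood apart by chromosome. The median gene of chromosome 8 lay at −0.38 and −0.30 (log2, relative to its mean over all 8 libraries) in EVX1 KO replicates 1 and 2 and at 0.08 in replicate 3, while Evx1as KO lay between 0.15 and 0.17. For chromosome 14 the values were −0.36 and −0.34 for Evx1as KO replicates 2 and 3 and 0.13 for replicate 1, against 0.16 to 0.18 in EVX1 KO. Chromosome 1 lay at 0.12 to 0.14 in EVX1 KO and at −0.10 to −0.08 in Evx1as KO. The Y-linked genes Eif2s3y and Ddx3y were both listed at 0 in EVX1 KO replicate 1, and Ddx3y also in replicate 3, while Eif2s3y stood at 2.98 and 1.02 in replicates 2 and 3 and at 2.46, 3.66 and 2.93 in Evx1as KO. Many genes on chromosomes 1, 8 and 14 are marked as such below, but not all: Pcdh8 and Tdh, for example, lie on chromosome 14. A gene without a mark may therefore lie on one of these chromosomes. The part of these shifts in the differences of their genes was not tested.

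Differences were many. Of the 12971 genes 2678 (20.6%) passed the test at a Benjamini-Hochberg adjusted p under 0.05 in limma. Of these 1274 were higher in EVX1 KO (9.82% of tested genes) and 1404 were lower (10.8%). The large differences lay more often on the higher side: 273 of the genes called higher differed at least 2-fold and 50 at least 4-fold, against 251 and 20 of those called lower. Most were modest, with a median absolute log2 fold change of 0.62 among called genes and 0.23 among all genes. At an unadjusted p under 0.05 there were 4777 genes. The count rests in part on single libraries, since 1002 genes were called without EVX1 KO replicate 2, 1049 without Evx1as KO replicate 3 and 1563 without Evx1as KO replicate 1. From EVX1 KO replicate 1 alone, 623 genes were called, 265 higher and 358 lower, and 491 of the 2678 calls were shared. No gene was called in the opposite direction in any of those fits.

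**Figure D1:**
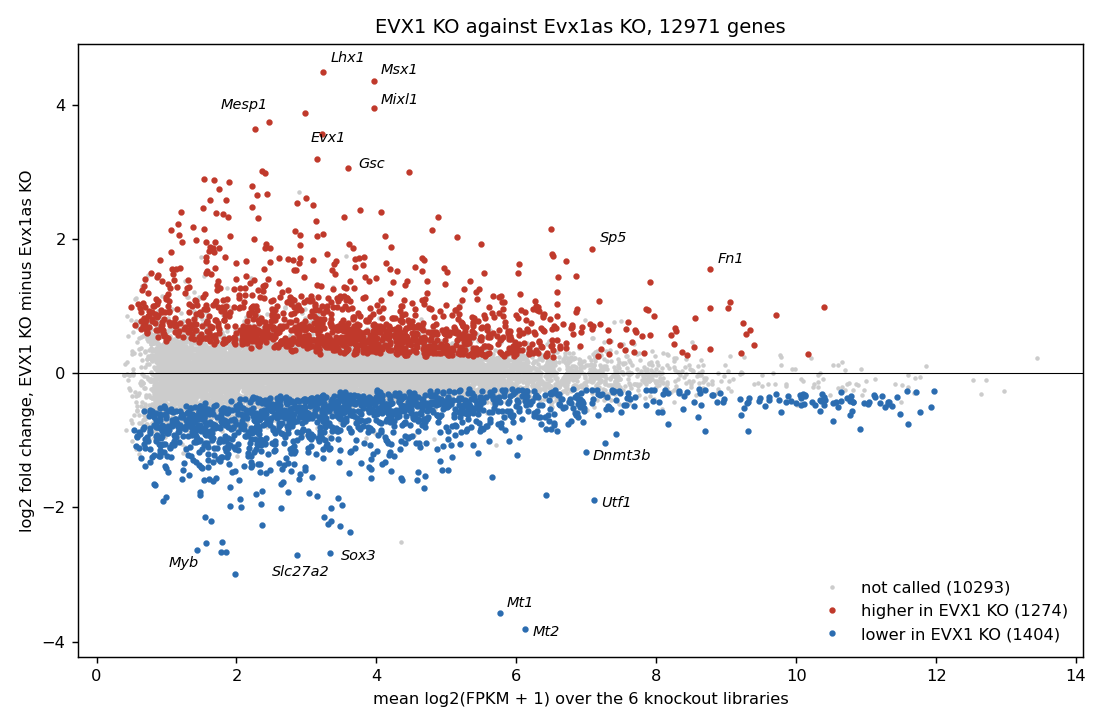
Each point is 1 of 12971 genes, with the mean log2(FPKM + 1) of the 6 knockout libraries on the x axis and the log2 fold change (EVX1 KO minus Evx1as KO) on the y axis. Red points were called higher (1274), blue points lower (1404) and grey points were not called. Streak genes such as Lhx1 (4.49), Msx1 (4.36) and Mixl1 (3.95) lie at the top, and the metallothionein genes Mt1 (−3.58) and Mt2 (−3.81) at the bottom.

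The 15 largest rises and the 15 largest falls were taken among called genes of at least 5 FPKM in the higher group whose groups did not overlap, as 41.2% of all tested genes did not. Of the 187 genes singled out by rule or chosen afterwards, 143 were called, and 60 of these were also called with EVX1 KO replicate 1 alone, none in the opposite direction. Lhx1, a LIM homeobox gene of the anterior streak and its descendants, led the rises. Lhx1 stood at 40.8, 47.3 and 43.6 FPKM in EVX1 KO, against 0.175, 3.97 and 0.362 in Evx1as KO, with WT at 22.7 and 20.7 (log2 fold change of 4.49 ± 0.49, adjusted p = 0.00179). All EVX1 KO libraries lay above WT and all Evx1as KO libraries below it, with Evx1as KO replicate 2 the highest of its group. Msx1, a homeobox target of BMP signalling, was next: EVX1 KO libraries held 61.9, 69.1 and 79.0 FPKM against 1.54, 7.78 and 0.835 in Evx1as KO, and WT held 49.6 and 46.1 (4.36 ± 0.51, adjusted p = 0.00224). On chromosome 1, the mesendoderm homeobox gene Mixl1 gave 55.1, 55.3 and 71.8 FPKM against 0.855, 10.3 and 1.95, with 49.7 and 61.8 in WT (3.95 ± 0.58, adjusted p = 0.00502). Its EVX1 KO libraries overlapped WT. Evx1as KO replicate 2 again stood well above the other replicates of its group and well below every other library. The list also held the chemokine receptor Cxcr4 (chromosome 1), the zinc finger gene Gata4 (chromosome 14), Mesp1, the retinoic acid hydroxylase Cyp26a1, Evx1 itself, the organizer homeobox gene Gsc, the Wnt antagonist Dkk1, the IGF binding protein Igfbp4, Grrp1, Optc (chromosome 1), the secreted antagonist Cer1 and the homeobox gene Six2, with log2 fold changes from 2.79 (Six2) to 3.87 (Cxcr4). For EVX1 KO replicate 1 alone, the changes of Lhx1 (4.39, adjusted p = 0.0541), Msx1 (4.19, 0.0595), Mixl1 (3.83, 0.0925), Gsc (3.06, 0.105), Cer1 (2.97, 0.0511) and Six2 (2.42, 0.0535) were of like size and not called, while Cxcr4 (3.55, 0.0281), Gata4 (3.27, 0.0270), Cyp26a1 (3.46, 0.0301), Dkk1 (3.08, 0.0358), Igfbp4 (3.00, 0.0281) and Mesp1 (2.47, 0.0414) were called.

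The falls were led by 2 metallothioneins, small proteins that bind zinc and other metals and that neighbour each other on chromosome 8. Mt2 stood at 16.7, 13.0 and 25.3 FPKM in EVX1 KO, against 251, 242 and 295 in Evx1as KO, with WT at 159 and 54.3 (log2 fold change of −3.81 ± 0.21, adjusted p = 3.46e-04). Mt1 stood at 10.3, 17.9 and 17.3 FPKM against 166, 181 and 218, with 108 and 42.1 in WT (−3.58 ± 0.20, adjusted p = 3.46e-04). For both genes EVX1 KO lay below every other library and Evx1as KO above every other, with the WT libraries apart from each other between them. Slc27a2, a fatty acyl-CoA synthetase, held 1.63, 1.92 and 1.99 FPKM in EVX1 KO and 19.3, 17.1 and 16.2 in Evx1as KO, and WT at 2.02 and 4.58 lay nearer EVX1 KO (−2.70 ± 0.11, adjusted p = 1.86e-04). Pipox, a peroxisomal oxidase of pipecolic acid and sarcosine, followed the same pattern, with 0.402, 0.247 and 0.467 FPKM against 7.45, 7.47 and 8.09, and 0.650 and 0.479 in WT (−2.66 ± 0.12, adjusted p = 1.98e-04). The others were the neural and epiblast factor Sox3, the proto-oncogene Myb, the forkhead gene Foxd3, the chemokine Cxcl12, the epithelial GTPase Rab25, the kinase Mapk13, Enpp3, Aff3 (chromosome 1), Crmp1, Ndrg2 (chromosome 14) and Cbs, the first enzyme of transsulphuration. Their log2 fold changes lay between −2.68 (Sox3) and −2.00 (Cbs), and their WT libraries all lay below Evx1as KO. With EVX1 KO replicate 1 alone Mt2 (−3.89, adjusted p = 0.00869), Mt1 (−4.06, 0.00885), Slc27a2 (−2.82, 0.0198), Pipox (−2.63, 0.0208), Foxd3 (−2.67, 0.0270) and Sox3 (−2.35, 0.0282) remained called, and Ndrg2 (−1.69, 0.0592) did not. Cxcr4 and its ligand gene Cxcl12 thus differed in opposite directions, Cxcl12 with 0.641, 0.219 and 0.511 FPKM in EVX1 KO and 7.64, 6.55 and 7.59 in Evx1as KO (−2.51 ± 0.15, adjusted p = 3.58e-04), and 0.589 and 1.49 in WT.

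**Figure D2:**
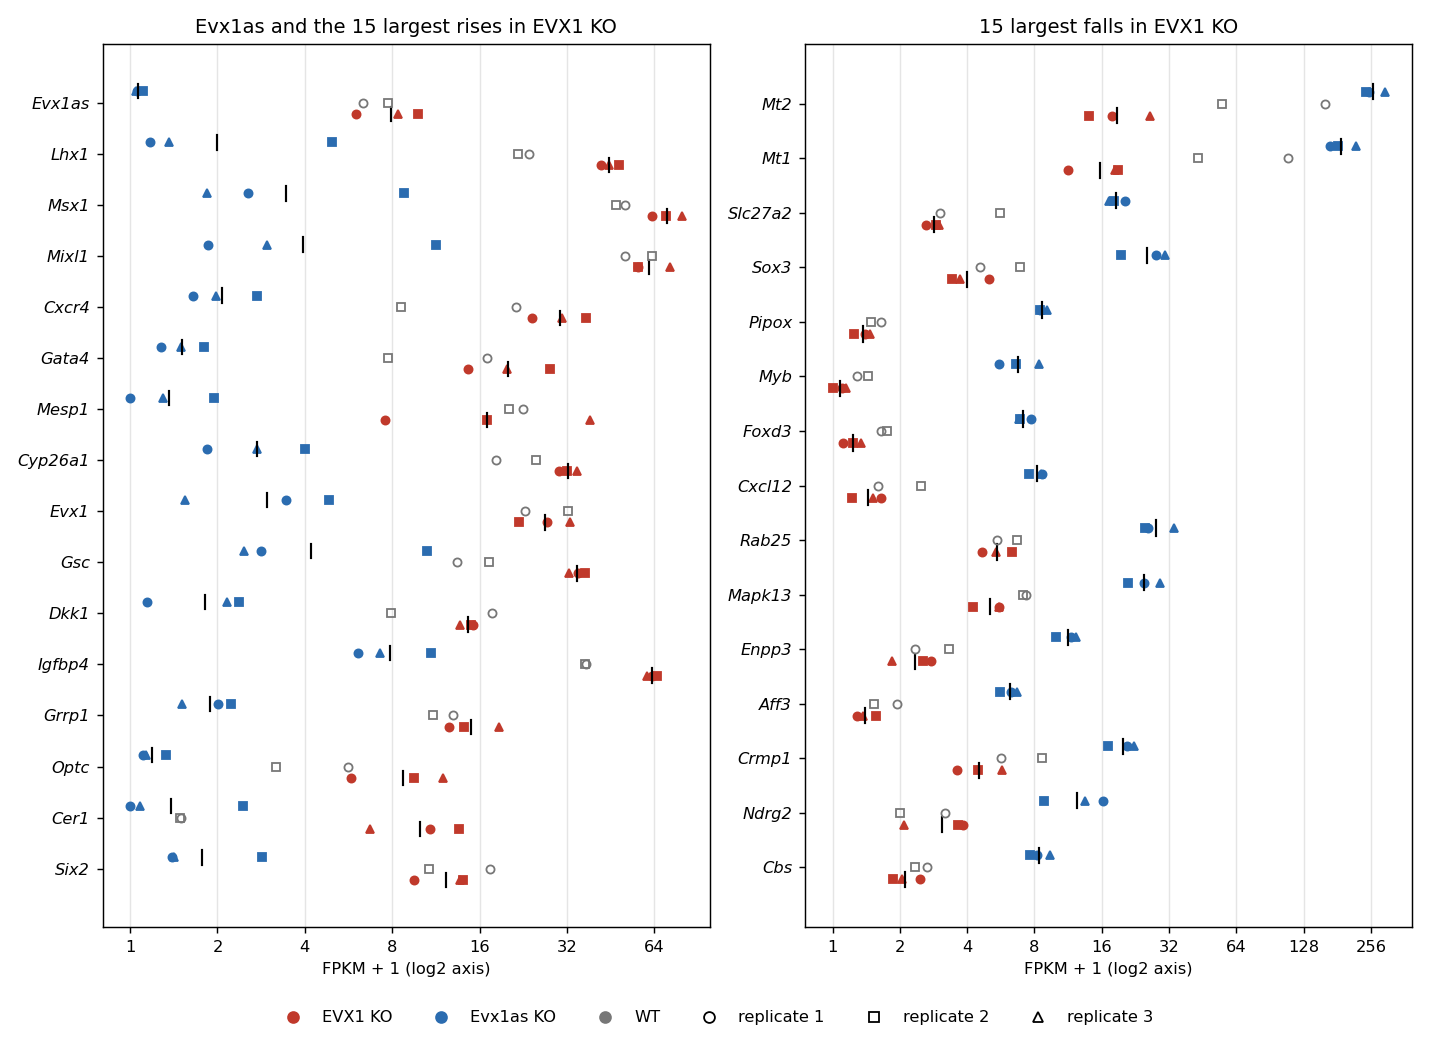
FPKM + 1 on a log2 axis in each library for Evx1as and the 15 largest rises (left) and the 15 largest falls (right). Red marks EVX1 KO, blue Evx1as KO and open grey symbols WT; circles, squares and triangles are replicates 1, 2 and 3, and black bars are group means on the log2 scale. Blue squares (Evx1as KO replicate 2) lie to the right of the other blue symbols for Lhx1 (3.97 FPKM) and Mixl1 (10.3 FPKM).

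Genes of the primitive streak were mostly higher in EVX1 KO. Of 16 tested streak and mesendoderm genes 13 were called higher and 0 lower, and their median log2 fold change was 2.32, where the median of all tested genes was −0.00416. Shares called over all tested genes, 9.82% higher and 10.8% lower, stand beside the counts of this and every later list. T, Eomes, Mixl1, Gsc, Evx1, Fgf8, Wnt3, Lhx1, Foxa2, Cer1, Fst, Mesp1 and Mesp2 made up the 13, while Nodal, Hhex and Tdgf1 were not called and Wnt3a, Chrd and Noto did not reach the FPKM minimum. Evx1 itself belongs to the targeted pair, and the list was chosen with earlier results of these data known. Mesp1, a basic helix-loop-helix factor of nascent cardiac mesoderm, ranged widely: 6.57, 15.96 and 37.3 FPKM in EVX1 KO against a listed 0, 0.949 and 0.297 in Evx1as KO, with 21.6 and 19.3 in WT (log2 fold change of 3.64 ± 0.54, adjusted p = 0.00526). EVX1 KO replicate 1 lay below WT and replicate 3 above it. Mesp1 met the FPKM minimum through EVX1 KO alone, so its direction follows in part from the filter. Gsc, a repressor of the organizer, was tighter in EVX1 KO, at 33.9, 35.8 and 31.5 FPKM, than in Evx1as KO, at 1.81, 9.56 and 1.47 (3.05 ± 0.49, adjusted p = 0.00686). WT held 12.4 and 16.2, above Evx1as KO and below EVX1 KO. Eomes, the T-box factor that opens both mesoderm and endoderm programmes, stood at 52.8, 69.6 and 74.8 FPKM against 13.4, 20.7 and 6.28, with 42.7 and 46.6 in WT (2.33 ± 0.36, adjusted p = 0.00594). In the fit of EVX1 KO replicate 1 alone, 2 genes of the list were called higher, Mesp1 among them, and Eomes was not (2.03, adjusted p = 0.114). T, or Brachyury, was chosen after its values were seen. It stood at 204, 159 and 147 FPKM in EVX1 KO, against 37.3, 101 and 29.6 in Evx1as KO, with WT at 191 and 221 (1.78 ± 0.41, adjusted p = 0.0219). Its call was lost without EVX1 KO replicate 1 (adjusted p = 0.0550) or 2 (0.0708), without Evx1as KO replicate 1 (0.0722) or 3 (0.0705), and with EVX1 KO replicate 1 alone (2.05, 0.144).

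Definitive endoderm genes had the highest median of the lists. Of 11 tested genes 8 were called higher and 0 lower, with a median of 2.75. They were Sox17, Foxa2, Cxcr4, Gata4, Gata6, Cer1, Gsc and Lhx1, of which Cer1, Gsc, Lhx1 and Foxa2 are also on the streak list and Sox17, Cxcr4 and Gata4 lie on chromosome 1 or 14. Without the genes of chromosomes 1, 8 and 14 the count was 5, and with EVX1 KO replicate 1 alone it was 4. Sox17, Gata4 and Gata6 stayed under 1 FPKM in every Evx1as KO library and met the FPKM minimum through EVX1 KO alone. Their direction, and the list median, which is the value of Gata6, therefore follow in part from the filter. Cer1, an antagonist of Nodal, BMP and Wnt ligands made by anterior endoderm, stood at 9.84, 12.6 and 5.72 FPKM in EVX1 KO, against a listed 0, 1.45 and 0.0851 in Evx1as KO, with WT at 0.498 and 0.489 (log2 fold change of 2.85 ± 0.38, adjusted p = 0.00385). All EVX1 KO libraries lay above both other groups, and WT lay within the Evx1as KO range. Gata6, a zinc finger factor of endoderm and heart, held 6.37, 10.4 and 6.91 FPKM against 0.0498, 0.847 and 0.132, and 6.32 and 5.29 in WT (2.75 ± 0.26, adjusted p = 0.00110). Foxa2 and Sox17, endoderm factors chosen after their values were seen, also had WT low. Sox17 stood at 8.81, 8.48 and 2.27 FPKM in EVX1 KO, against 0.204, 0.529 and a listed 0 in Evx1as KO, with WT at 1.41 and 0.370 (2.46, adjusted p = 0.00804). Foxa2 stood at 11.8, 14.3 and 5.93 FPKM in EVX1 KO, against 0.309, 3.86 and 0.750 in Evx1as KO, with WT at 1.46 and 1.29 (2.31, adjusted p = 0.0179). In both, EVX1 KO replicate 3 was the lowest of its group. The Foxa2 call was lost without EVX1 KO replicate 2 (adjusted p = 0.0723) and without Evx1as KO replicate 1 (0.0525) or 3 (0.0709). Of 8 tested extraembryonic endoderm genes, which share several factors with definitive endoderm, Sparc and Pdgfra were called higher and Apoe lower. Higher calls made up 9.82% of all tested genes and lower calls 10.8%. The list members under the minimum, the yolk sac genes Afp and Ttr among them, stood between 0 and 0.496 FPKM in every knockout library. Apoe, a lipoprotein gene, gave 380, 317 and 240 FPKM against 511, 555 and 616 (−0.86 ± 0.16, adjusted p = 0.0115), a call lost without Evx1as KO replicate 3 (0.0519) and with EVX1 KO replicate 1 alone (0.0779). There were 4 of these genes called higher without EVX1 KO replicate 3 or Evx1as KO replicate 2.

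Genes of both mesoderm lists were mostly higher where they were called. Of 10 tested genes of lateral and cardiac mesoderm 9 were called higher and 0 lower, with a median of 1.95, and with EVX1 KO replicate 1 alone 2 were called higher. Hand1, a basic helix-loop-helix factor of extraembryonic and lateral mesoderm, stood at 9.84, 21.9 and 13.3 FPKM in EVX1 KO, against 1.66, 2.81 and 3.87 in Evx1as KO, with WT at 15.99 and 9.14 (log2 fold change of 2.06 ± 0.31, adjusted p = 0.00539). Hand2, its paralogue on chromosome 8, was listed at 0 in all 3 Evx1as KO libraries and stood at 2.37, 5.42 and 2.84 in EVX1 KO (adjusted p = 0.00212), so that no fold is given. The growth factor receptor Pdgfra held 2.73, 4.64 and 7.15 FPKM against 0.188, 0.334 and 0.166, with 5.21 and 2.20 in WT (2.18 ± 0.27, adjusted p = 0.00267). Among 11 tested paraxial mesoderm genes 5 were called higher (Msgn1, Dll3, Rspo3, Cited1 and Pcdh8), 1 was called lower (Hes7) and the median was 0.42. Msgn1, a regulator of presomitic mesoderm, was far below WT in both knockouts: 2.32, 3.07 and 0.969 FPKM in EVX1 KO and a listed 0, 0.367 and 0 in Evx1as KO, against 18.7 and 16.1 in WT (1.43 ± 0.29, adjusted p = 0.0145). Its call was lost without EVX1 KO replicate 2 (0.0583) or Evx1as KO replicate 3 (0.0592), and without the latter 3 genes of the list were called higher, Msgn1 and Pcdh8 not among them. From EVX1 KO replicate 1 alone 3 were also called, but with Msgn1 (adjusted p = 0.0476) among them and Dll3 (0.133) not. The calls of Pcdh8 (0.0574 and 0.0639) were lost without Evx1as KO replicate 1 or 3, as were those of Hes7 (0.0660 and 0.0766), which was also lost without EVX1 KO replicate 2 (0.0745). Rspo3, a secreted Wnt enhancer, held 6.58, 5.44 and 4.65 FPKM against 0.813, 1.54 and 0.659 (1.73 ± 0.19, adjusted p = 0.00200), with 7.72 and 6.41 in WT. Only 4 of 16 blood and endothelium genes reached the minimum. Of these Kdr, the receptor of vessel and blood progenitors, gave 3.67, 9.97 and 7.18 FPKM against 0.285, 0.377 and 0.126, with 10.3 and 4.32 in WT (2.57 ± 0.29, adjusted p = 0.00204). Its relative Flt1 was also called higher, and the call of Runx1 was lost in each fit that left out EVX1 KO replicate 2 or 3 (0.156 and 0.102) or Evx1as KO replicate 1, 2 or 3 (0.0925 to 0.103). The FPKM minimum can be met by a single group, as by EVX1 KO for Kdr, Hand2 and Pdgfra. The direction of such a member, in any list, then follows in part from the filter. In bulk cultures, fewer cells of a type and less RNA per cell cannot be told apart, here and for every list.

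**Figure D3:**
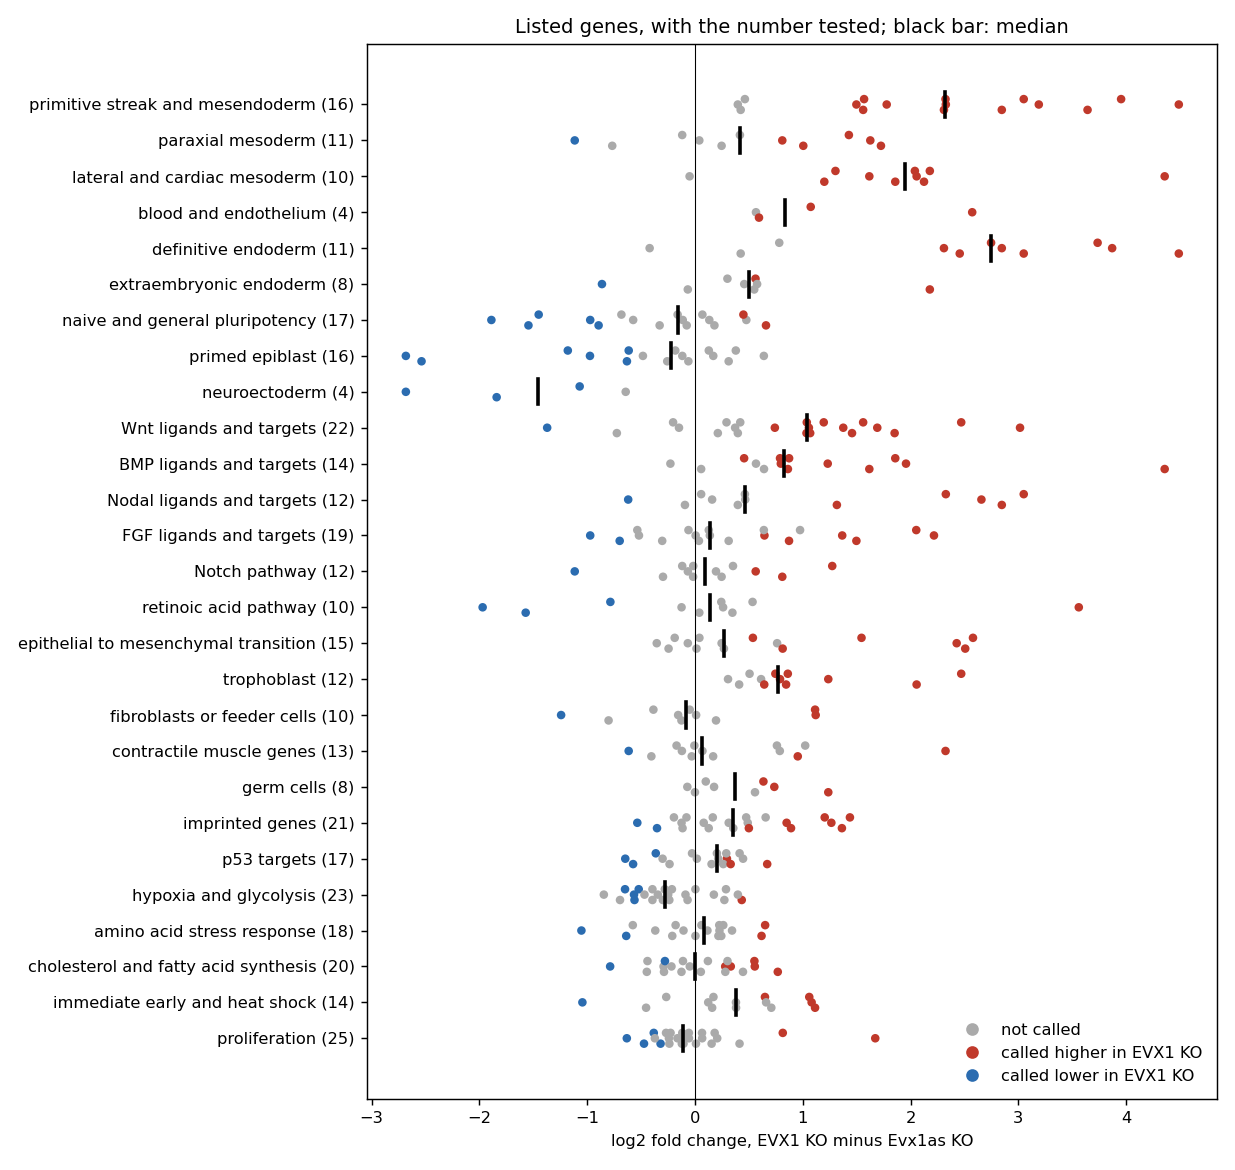
Log2 fold changes (x axis, EVX1 KO minus Evx1as KO) of the tested genes of each list shown, with the number tested in brackets. Red points were called higher, blue points lower, grey points were not called, and black bars are medians, from 2.75 in definitive endoderm to −1.45 in neuroectoderm.

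Signalling genes were read from ligands to targets. Wnt ligands bind Frizzled receptors and stabilise beta-catenin, which acts with TCF/LEF factors on targets such as Axin2, Sp5 and Cdx genes. Of 22 tested Wnt genes 13 were called higher and 1 lower, with a median of 1.04. Among ligands Wnt3, needed to form the streak, stood at 51.3, 57.1 and 49.8 FPKM in EVX1 KO, against 14.2, 25.5 and 13.98 in Evx1as KO, with WT at 57.3 and 58.5 (log2 fold change of 1.56 ± 0.21, adjusted p = 0.00389). Wnt5a, Wnt5b and Wnt11 were called higher as well, and Wnt8a was not called. The receptor gene Fzd10 held 49.5, 48.1 and 38.1 FPKM against 12.6, 15.7 and 11.6, and 34.8 and 43.5 in WT (1.69 ± 0.14, adjusted p = 8.04e-04). Of the targets, Sp5 stood at 273, 244 and 257 FPKM in EVX1 KO, above 145 and 195 in WT, and at 64.7, 117 and 46.4 in Evx1as KO (1.85 ± 0.29, adjusted p = 0.00613). Cdx2, a caudal homeobox gene of the posterior embryo, held 9.51, 11.01 and 9.60 FPKM against 0.764, 1.66 and 0.676 (2.47 ± 0.19, adjusted p = 5.46e-04), with 9.37 and 14.4 in WT. Axin2, named after its values were seen, gave 25.6, 27.0 and 27.5 FPKM against 10.3, 15.0 and 8.79, with 31.7 and 32.3 in WT (1.19, adjusted p = 0.00448). The secreted antagonists went both ways. Dkk1 was among the largest rises, at 14.2, 13.9 and 12.7 FPKM against 0.146, 1.38 and 1.16 (3.02 ± 0.26, adjusted p = 9.41e-04), while Sfrp2, the 1 gene called lower, held 3.44, 2.52 and 3.00 FPKM against 10.2, 7.94 and 9.78 (−1.37, adjusted p = 0.00130). Without EVX1 KO replicate 2 or without Evx1as KO replicate 3, 8 of the Wnt genes were called higher, and with EVX1 KO replicate 1 alone 5 were. In that fit Cdx2, Fzd10 and Dkk1 were called and Sp5 (1.94, adjusted p = 0.0886) and Wnt3 (1.52, 0.0739) were not.

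BMP ligands act through SMAD proteins on targets such as the Id and Msx genes. Of 14 tested BMP genes 10 were called higher and 0 lower, with a median of 0.83. Bmp4, Msx1 and Msx2 are also counted on the lateral and cardiac mesoderm list. The ligand Bmp2 stood at 3.74, 4.14 and 2.97 FPKM in EVX1 KO, against 0.222, 0.251 and 0.0784 in Evx1as KO, with WT at 4.37 and 3.13 (log2 fold change of 1.96 ± 0.16, adjusted p = 7.36e-04). Bmp4, on chromosome 14, held 30.4, 27.4 and 15.6 FPKM against 8.86, 4.38 and 8.65, and 24.9 and 25.2 in WT (1.62 ± 0.30, adjusted p = 0.0114). Bmp7 was not called. Among targets Msx2 gave 15.2, 25.1 and 32.8 FPKM against 3.71, 8.87 and 5.43, with 40.4 and 24.2 in WT (1.86 ± 0.33, adjusted p = 0.00938), and Id2, Id3, Smad6, Bambi and Gata3 were also called higher, whereas Id1 and Smad7 were not called. Only 5 of these genes were called higher without EVX1 KO replicate 2, and Bmp4 (adjusted p = 0.0524), Id2 (0.0784) and Gata3 (0.0847) were among those lost. From EVX1 KO replicate 1 alone, 2 were called higher.

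Nodal, an activin-like ligand, signals through the co-receptors Tdgf1 and Cfc1 and induces its own antagonists Lefty1 and Lefty2. The ligand did not pass the test, at 87.3, 75.3 and 61.5 FPKM in EVX1 KO and 63.6, 56.9 and 48.2 across Evx1as KO (log2 fold change of 0.40, adjusted p = 0.0948), and the groups overlapped; the call was made without EVX1 KO replicate 3 (0.0374). Of 12 tested Nodal genes 5 were called higher (Lefty2, Eomes, Gsc, Cer1 and Cfc1) and Gdf3 was called lower. Eomes, Gsc and Cer1 are also counted on the streak list. Cfc1, on chromosome 1, stood at 16.9, 14.5 and 5.80 FPKM against 1.58, 0.992 and 0.466, with 4.07 and 0.760 in WT (2.66 ± 0.37, adjusted p = 0.00422). Lefty2, also on chromosome 1, held 36.9, 34.9 and 26.4 FPKM against 17.5, 11.8 and 9.20, with 11.5 and 21.6 in WT (1.32 ± 0.22, adjusted p = 0.00795). In both genes every EVX1 KO library lay above every other library. Gdf3, a related ligand of the epiblast, gave 8.43, 10.1 and 8.62 FPKM against 16.4, 13.5 and 13.4 (−0.62 ± 0.11, adjusted p = 0.0111). Without the genes of chromosomes 1, 8 and 14, 3 of the Nodal genes were called higher, and with EVX1 KO replicate 1 alone 1 was, with Lefty2 (1.498, adjusted p = 0.0675) not called.

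Other pathways were mixed. The median log2 fold changes of the FGF, Notch and retinoic acid lists were 0.14, 0.09 and 0.14. Over all tested genes 9.82% were called higher and 10.8% lower. Among 19 tested FGF genes 6 were called higher and 2 lower (Fgf4 and Fgfr2). Fgf8, the streak ligand needed for cells to migrate away, stood at 151, 112 and 75.1 FPKM in EVX1 KO, against 37.9, 49.1 and 28.9 in Evx1as KO, with WT at 69.0 and 73.2 (log2 fold change of 1.498 ± 0.27, adjusted p = 0.00992). Fgf3 and Fgf10 were near 0 in Evx1as KO, at most 0.140 and 0.161 FPKM, and held 2.27 to 5.64 and 3.08 to 4.83 in EVX1 KO (adjusted p = 0.00215 and 9.88e-04). Fgf5, the ligand of the late epiblast, was chosen after its values were seen and was close to level, at 35.2, 35.8 and 33.8 FPKM against 32.6, 31.7 and 31.2, with 13.5 and 13.6 in WT (0.13, adjusted p = 0.225). The call of Fgf4 was lost without Evx1as KO replicate 1 (0.0525) or 3 (0.0646). Of 12 Notch genes Dll3, Jag1 and Hes1 were called higher and Hes7 lower, with Jag1 at 5.44, 5.595 and 5.32 FPKM against 1.81, 1.71 and 1.498 and WT at 1.83 and 3.62 (1.27 ± 0.11, adjusted p = 9.32e-04). The Hes1 call was lost without EVX1 KO replicate 1 (0.0554) or 2 (0.0822) and without Evx1as KO replicate 2 (0.0639) or 3 (0.0870), and that of Hes7 as given above. Of 10 tested retinoic acid genes 1 was called higher and 3 lower. The 1 was Cyp26a1, which degrades retinoic acid in the streak: 29.03, 31.1 and 33.6 FPKM in EVX1 KO, 0.844, 3.01 and 1.74 in Evx1as KO, and 17.2 and 24.0 in WT (3.56 ± 0.25, adjusted p = 4.77e-04). The retinaldehyde reductase Dhrs3 (−1.97), the binding protein Crabp2 (−1.57) and the receptor Rarg (−0.78) were the 3 called lower, and Dhrs3 held 5.98, 5.401 and 3.29 FPKM against 25.2, 13.2 and 29.9 (adjusted p = 0.00594). For EVX1 KO replicate 1 alone, Dhrs3 (−1.69, adjusted p = 0.0935) and Rarg (−0.71, 0.0852) were not called. In that fit 3 FGF genes were called higher and 2 lower, and 1 Notch gene was called higher.

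Cells that pass through the streak exchange epithelial for mesenchymal adhesion, with loss of E-cadherin (Cdh1) and gain of N-cadherin (Cdh2) under the repressor Snai1. Of 15 tested genes of this transition 6 were called higher and 0 lower, and the list's median was 0.27. Snai1 stood at 21.5, 30.0 and 44.3 FPKM in EVX1 KO, against 2.99, 8.17 and 4.54 in Evx1as KO, with WT at 28.1 and 38.9 (log2 fold change of 2.43 ± 0.34, adjusted p = 0.00416). Cdh2 held 18.1, 20.1 and 19.7 FPKM against 1.58, 5.33 and 1.78, with 24.6 and 21.1 in WT (2.51 ± 0.31, adjusted p = 0.00275), and Cdh11, on chromosome 8, 3.84, 8.37 and 14.2 against 0.484, 0.457 and 0.493 (2.58 ± 0.36, adjusted p = 0.00432). The fibronectin gene Fn1, on chromosome 1, gave 768, 770 and 707 FPKM against 193, 373 and 231 (1.55 ± 0.21, adjusted p = 0.00413). The epithelial genes Cdh1, Epcam, Esrp1, Cldn4, Cldn7 and Ocln were not called, and Esrp2, a splicing factor of epithelia, was called higher with the mesenchymal ones. Of the 6 genes Fn1, Cdh11 and Esrp2 lie on chromosomes 1 and 8. With EVX1 KO replicate 1 alone 2 of the 6 were called, and Snai1 (1.94, adjusted p = 0.0767), Cdh2 (2.42, 0.0687) and Fn1 (1.58, 0.0718) were not.

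Markers of other cell types were read in the same way, beside the 9.82% of all tested genes called higher and the 10.8% called lower. Of 12 tested trophoblast genes 8 were called higher and 0 lower, among them Cdx2 and Hand1, which mesoderm also expresses, and the keratins Krt8, Krt18 and Krt19 of simple epithelia. The summed level of the trophoblast list was 2083.4 to 2636.9 FPKM in EVX1 KO, 1066 to 1769.8 in Evx1as KO and 3112.8 to 3652.2 in WT. Its members under the FPKM minimum, Elf5, Tpbpa and Plac1, were at most 0.0674, 0 and 0.590 FPKM in any library. Only 3 of the trophoblast genes were called without EVX1 KO replicate 2 or Evx1as KO replicate 3, and Krt8 (adjusted p = 0.0690 and 0.0652), Krt19 (0.0614 and 0.0639), Gata3 (0.0847 and 0.0692) and Tfap2c (0.0573 and 0.0522) were not. For 10 tested genes of fibroblasts or feeder cells, Col1a1 and Twist2 were called higher and Mmp2 (chromosome 8) lower, and the list summed to 257.4 to 328 FPKM in EVX1 KO and 320.2 to 346.3 in Evx1as KO. Col1a1 and Twist2 were not both called in any fit that left out 1 library. The members under the minimum, Col3a1, Dcn, Postn and Lum, were at most 1.08, 0.906, 0.144 and 0.131 FPKM in any knockout library. Among 13 contractile genes Actc1 and Myl7 were called higher and Des lower, a share near that of all tested genes (20.6% in either direction). Without EVX1 KO replicate 2 or Evx1as KO replicate 3 neither Actc1 (0.0769 and 0.0850) nor Myl7 (0.0571 and 0.0692) was called. Of 8 germ cell genes Nanos3 (chromosome 8), Tfap2c and Ifitm3 were called higher, and 1 of them without EVX1 KO replicate 2 or Evx1as KO replicate 3. In the fit of EVX1 KO replicate 1 alone, the counts of genes called higher were 1 trophoblast, 1 fibroblast, 1 contractile and 0 germ cell gene. No gene of the 2-cell-like state reached the minimum.

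Genes of the primed epiblast and of early neural cells that were called in the fit of all 6 libraries were lower in EVX1 KO. Of 16 tested primed epiblast genes 6 were called lower and 0 higher, with a median of −0.22. One was called higher without EVX1 KO replicate 3, and one without Evx1as KO replicate 2, the ETS factor Etv4 (0.88, adjusted p = 0.0428, against 0.64 and 0.117 with all 6 libraries). Sox3 stood at 4.01, 2.43 and 2.70 FPKM in EVX1 KO, against 27.0, 18.5 and 29.7 in Evx1as KO, with WT at 3.58 and 5.91 (log2 fold change of −2.68 ± 0.21, adjusted p = 5.61e-04). Foxd3, which keeps epiblast cells from differentiating, held 0.117, 0.239 and 0.340 FPKM against 6.71, 5.89 and 5.81, and 0.650 and 0.747 in WT (−2.54 ± 0.14, adjusted p = 3.46e-04). The DNA methyltransferase Dnmt3b gave 94.3, 92.0 and 67.4 FPKM against 176, 193 and 203, with 48.2 and 60.8 in WT (−1.18 ± 0.13, adjusted p = 0.00204). For Dnmt3b EVX1 KO lay between the other groups. Sall2 and Zic2, both on chromosome 14, and Dnmt3a were the other members called lower. Sall2 lost its call without EVX1 KO replicate 2 (0.0990) or 3 (0.0662) and without Evx1as KO replicate 1 (0.0816) or 3 (0.101). Among 17 tested genes of naive and general pluripotency 5 were called lower (Sox2, Dppa5a, Fgf4, Utf1 and Tdh) and 2 higher (Klf5 and Dppa2). The share of this list called higher lay near the 9.82% of all tested genes called higher. Lower calls made up 10.8% of all tested genes. Sox2, a core pluripotency and neural factor, held 20.6, 15.1 and 17.4 FPKM against 56.7, 38.8 and 55.8, with 11.7 and 18.8 in WT (−1.45 ± 0.17, adjusted p = 0.00219). The chromatin factor Utf1 gave 62.1, 73.4 and 78.4 FPKM against 291, 218 and 294, with 63.7 and 132 in WT (−1.89 ± 0.14, adjusted p = 5.20e-04). The other core factors, named after their values were seen, did not pass: Pou5f1 stood at 302, 345 and 365 FPKM against 458, 431 and 380 (−0.33, adjusted p = 0.0570), and Nanog at 128.2, 85.6 and 81.6 against 125, 86.4 and 105 (−0.11, adjusted p = 0.711). The Pou5f1 groups did not overlap. Pou5f1 was called lower with all 8 libraries in the fit (adjusted p = 0.0417), with array weights (0.0229) and without EVX1 KO replicate 3 (0.0492). Without EVX1 KO replicate 2 or Evx1as KO replicate 3, 3 of the pluripotency genes were called lower, Dppa5a (0.0694 and 0.0805) not among them, and Klf5 and Dppa2 were not both called higher in any fit without EVX1 KO replicate 1, 2 or 3 or Evx1as KO replicate 1 or 3. From EVX1 KO replicate 1 alone, 3 primed epiblast and 2 pluripotency genes were called lower, and Sox2 (−1.23, adjusted p = 0.0541) was not. Only 4 of 18 neuroectoderm genes reached the minimum, and 3 of them were called lower: Sox3, Sox1 and Ncan, of which Sox1 and Ncan lie on chromosome 8. Sox1 reached the minimum through Evx1as KO alone, so its direction followed in part from the filter. Sox1, an early neural factor, stood at 0.0664, 0.0679 and 0.0322 FPKM against 3.00, 2.06 and 3.41 (−1.84 ± 0.18, adjusted p = 0.00123), with 0.336 and 0.0284 in WT. Pax6 was listed at 0 in all EVX1 KO libraries and at 0.441 to 0.917 in Evx1as KO, under the minimum.

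Genes of growth, metabolism and stress were called in both directions. Beside these counts, 9.82% of all tested genes were called higher and 10.8% lower. The shares called in the proliferation, hypoxia and amino acid lists lay near the 20.6% of all tested genes called in either direction. Of 25 tested proliferation genes the cyclins Ccnd1 and Ccnd2 were called higher and the replication genes Mcm2, Mcm3, Mcm5 and Mcm7 lower, with Mcm3 on chromosome 1 and Mcm5 on chromosome 8, and the other 19, Mki67 and the mitotic genes included, were not called. Only 1 of the replication genes was called lower without EVX1 KO replicate 2, and without Evx1as KO replicate 1 or 3, 2 were. Of 23 hypoxia and glycolysis genes Pfkp was called higher and Pgk1, Hk1, Pfkl and Ddit4 lower. None of the 4 was called without EVX1 KO replicate 2 (adjusted p = 0.0970, 0.0805, 0.134 and 0.105), while 7 genes of the list were called lower without Evx1as KO replicate 2. Of 17 p53 targets 3 were called in each direction, and without EVX1 KO replicate 2 the counts were 1 higher and 0 lower. Among 20 genes of cholesterol and fatty acid synthesis 5 were called higher and 2 lower, and without EVX1 KO replicate 2 or Evx1as KO replicate 3 these were 2 and 0. Among 18 genes of the amino acid stress response 2 were called in each direction, and 20.6% of all tested genes were called. Of 14 immediate early and heat shock genes Ier3, Atf3, Dusp1 and Myc were called higher and Egr1 lower, and without EVX1 KO replicate 2 none of the 5 was called. Of 21 imprinted genes 7 were called higher and 2 lower. Peg3, a paternally expressed zinc finger gene, held 175, 163 and 137 FPKM against 50.2, 72.3 and 52.4, with 102 and 104 in WT (1.44 ± 0.15, adjusted p = 0.00167). Peg10, another paternally expressed gene, gave 398, 381 and 376 FPKM against 126, 175 and 151, with 343 and 397 in WT (1.36 ± 0.12, adjusted p = 9.32e-04). Without EVX1 KO replicate 2 or without Evx1as KO replicate 1 or 3, 3 imprinted genes were called higher, and with EVX1 KO replicate 1 alone 2 were.

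Among genes near the edited locus, Chn2 stood at 4.31, 5.16 and 3.97 FPKM in EVX1 KO and 1.82, 2.91 and 3.13 in Evx1as KO, with 5.02 and 4.78 in WT (log2 fold change of 0.61 ± 0.17, adjusted p = 0.0436). The knockout groups did not overlap, and the call was lost without any 1 of the 6 libraries (adjusted p of 0.0563 to 0.149). Hibadh (adjusted p = 0.0504), Creb5, Cbx3, Snx10, Hnrnpa2b1, Skap2 and Tax1bp1 were not called. Evx2, the paralogue of Evx1, was listed at 0 in every library.

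WT values showed on which side of each difference the unedited cells stood. They were not part of the test, and their protocols give day 4, as those of Evx1as KO and of EVX1 KO replicate 1 do. Of the 1274 genes called higher, both WT libraries were nearer the EVX1 KO mean for 776 (60.9%) and nearer the Evx1as KO mean for 236 (18.5%). Of the 1404 called lower the counts were 993 (70.7%) and 134 (9.54%). Over all tested genes the shares were 49.4% and 24.96%. The place of WT depends on the EVX1 KO libraries used: both WT libraries were nearer EVX1 KO for 66.1% of all called genes, for 55.2% without EVX1 KO replicate 3, and for 44.5% of the 623 genes called with EVX1 KO replicate 1 alone. On chromosome 8, 361 genes were called lower without EVX1 KO replicate 3, against 188 in the main fit. Its median gene lay at −0.38 and −0.30 in EVX1 KO replicates 1 and 2, and at 0.10 and 0.004 in WT. Without the genes of chromosomes 1, 8 and 14 the share was 68.5%. The part of chromosome 8 in the lower shares was not tested. By direction, all 3 Evx1as KO libraries lay beyond every EVX1 KO and WT library for 980 genes called higher (76.9%). For genes called lower the count was 1190 (84.8%), and over all tested genes the share was 28.6%. For EVX1 KO that count was 487 (38.2%) and 332 (23.6%), against 11.8%. A called gene already has the 2 knockouts apart, so these counts exceed the share of all genes by construction and are given as a description.

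The 16 genes named for an EVX1 KO level beyond every other library differed in where WT lay. For 15 of them WT lay between the knockouts, among them Lhx1, Msx1, Cxcr4, Cyp26a1, Gsc, Igfbp4 and Optc of the rises. The rule that chose these genes puts WT on the Evx1as KO side of EVX1 KO and takes the largest differences. A WT level between the knockouts was therefore favoured by the choice, and the count is a description. Igfbp4, an inhibitor of IGF and Wnt signalling, stood at 61.6, 64.5 and 59.4 FPKM in EVX1 KO, at 36.2 and 35.9 in WT and at 5.10, 9.93 and 6.27 across the Evx1as KO libraries (log2 fold change of 3.00 ± 0.20, adjusted p = 4.35e-04). For Cer1 the WT libraries lay within the range of Evx1as KO. Among the falls, both WT libraries lay nearer EVX1 KO than Evx1as KO on the log2(FPKM + 1) scale for Slc27a2, Pipox, Myb, Foxd3, Mapk13 and Enpp2, and 1 of 2 did for Mt1 and Mt2. Myb held 0.107, a listed 0 and 0.146 FPKM in EVX1 KO, 0.288 and 0.439 in WT, and 4.56, 5.597 and 7.42 in Evx1as KO (−2.64 ± 0.18, adjusted p = 4.35e-04). The lysophospholipase Enpp2, a secreted enzyme that makes lysophosphatidic acid, gave 0.961, 0.728 and 1.01 FPKM in EVX1 KO, 1.74 and 2.56 in WT, and 7.23, 5.604 and 6.72 in Evx1as KO (−1.98 ± 0.14, adjusted p = 4.35e-04).

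The libraries within a group were not alike. Evx1as KO replicate 2 was the highest of its group for 722 (56.7%) of the genes called higher in EVX1 KO and the lowest for 948 (67.5%) of those called lower, so that it lay nearest to EVX1 KO more often than the other 2. Over all tested genes the shares were 33.8% and 37.0%. By lists, the median streak gene lay at −0.31 in Evx1as KO replicate 2, relative to each gene's mean over the 6 knockout libraries (log2), and at −1.31 and −1.68 in replicates 1 and 3. The definitive endoderm median lay at −0.60 there against −1.89 and −1.57. For paraxial mesoderm and BMP genes replicate 2 lay between the others, at −0.30 and −0.36. EVX1 KO lay between 1.02 and 1.19 for the streak list and between 0.86 (replicate 3) and 1.72 (replicate 2) for endoderm. Without Evx1as KO replicate 2, 2416 genes were called.

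**Figure D4:**
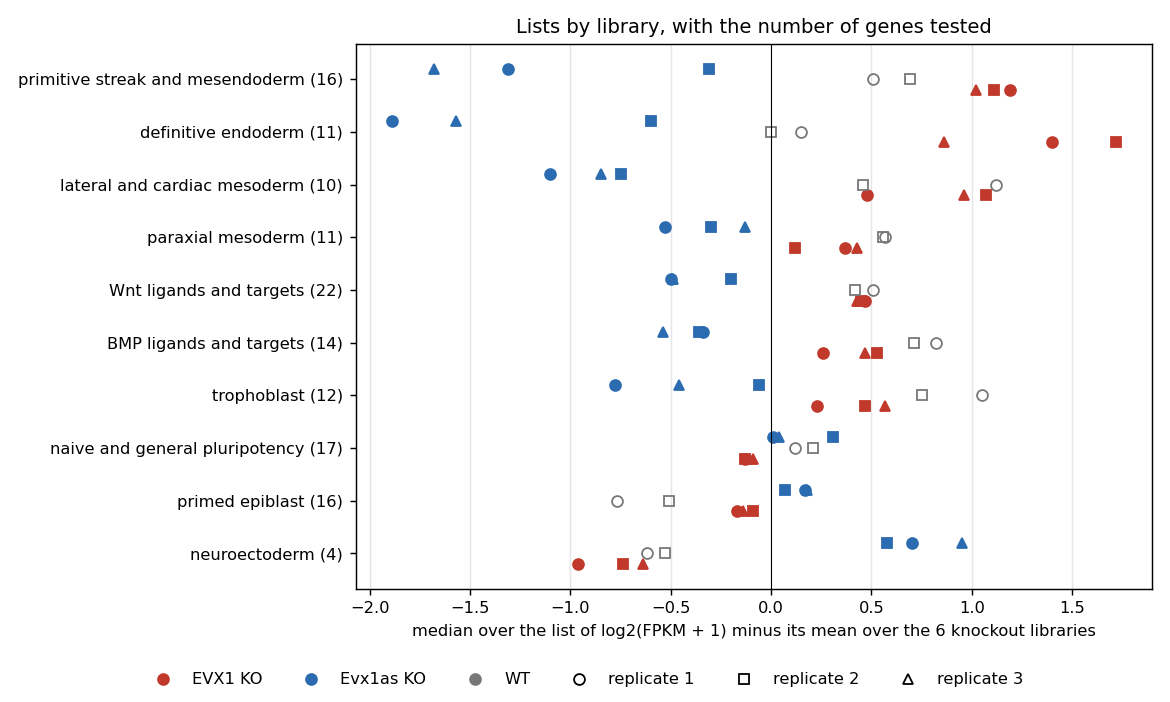
Median over each list of log2(FPKM + 1) relative to the gene's mean over the 6 knockout libraries (x axis), for each library, with the number of genes tested in brackets. Red is EVX1 KO, blue Evx1as KO and open grey WT; circles, squares and triangles are replicates 1 to 3. For the streak list EVX1 KO lies at 1.02 to 1.19, WT at 0.51 and 0.69 and Evx1as KO at −1.68 to −0.31.

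Called genes were uneven across chromosomes. On chromosome 1, 224 of 711 tested genes (31.5%) were called higher in EVX1 KO and 52 (7.31%) lower, and on chromosome 14, 114 of 494 (23.1%) higher and 15 (3.04%) lower. Chromosome 8 had the opposite sign, with 13 of 736 genes (1.77%) called higher and 188 (25.5%) lower. The median log2 fold changes were 0.22, 0.32 and −0.34, while those of the other autosomes and the X lay between −0.06 and 0.04. Without EVX1 KO replicate 3, in which chromosome 8 was not low, 361 genes of chromosome 8 were called lower, and without replicate 1 or 2 the counts were 124 and 62. Without Evx1as KO replicate 1 or 3 they were 89 and 67. For chromosome 14, 199 genes were called higher without Evx1as KO replicate 1, in which it was not low, 65 and 35 without replicates 2 and 3, and 29 without EVX1 KO replicate 2. For chromosome 1 they were 140 without EVX1 KO replicate 2 and 143 without Evx1as KO replicate 3. For EVX1 KO replicate 1 alone, the counts were 73 on chromosome 1, 156 on chromosome 8 and 8 on chromosome 14. Without the genes of all 3 chromosomes 2123 of 11030 were called, 946 higher and 1177 lower. Of the 30 genes with the largest differences, Mixl1, Cxcr4, Optc, Aff3, Gata4, Ndrg2, Mt1 and Mt2 lie on them.

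**Figure D5:**
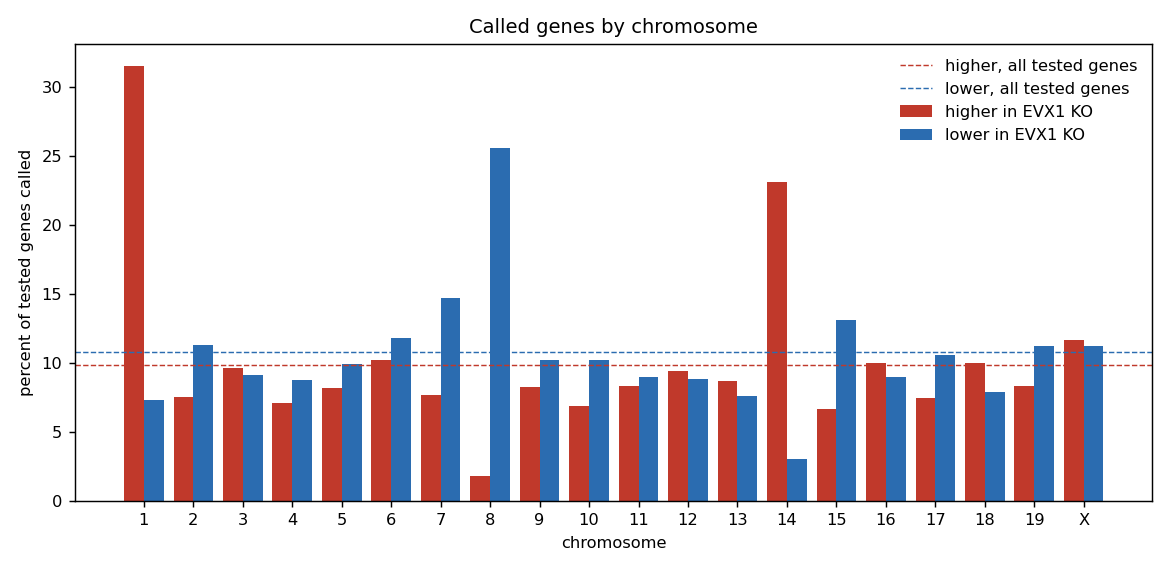
Percent of tested genes on each chromosome (x axis) that were called higher (red) or lower (blue) in EVX1 KO, with dashed lines at the shares over all tested genes (9.82% and 10.8%). Chromosomes 1 (31.5%) and 14 (23.1%) stand out for higher calls and chromosome 8 (25.5%) for lower ones.

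The promoter stretches were read across the comparison as a description. Windows of 300 bases, from 250 before the start to 50 after, were matched for 9333 of the 12971 tested genes. TCACAC stood on either strand in 153 of 960 windows of genes called higher (15.9%), in 105 of 1022 of genes called lower (10.3%), in 12.8% of all tested genes and in 16.4% of all 27025 genes of the promoter table. CTTTGAT stood in 3.75%, 3.03%, 2.84% and 4.29% in the same order, and TAATTA in 4.06%, 2.94%, 2.84% and 6.12%. For each of the 3 motifs the share in genes called higher lay above those in genes called lower and in all tested genes, and below that in the whole promoter table. None of these differences was tested. Of the 15 largest rises 13 had a window; Evx1 and Mesp1 held TCACAC, Mesp1 held CTTTGAT and Cer1 held TAATTA. Lhx1, Msx1, Cxcr4, Cyp26a1, Gsc, Dkk1, Igfbp4, Grrp1, Optc and Six2 held none of the 3, which says only that these letters are not in these windows.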

How the data were processed

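The deposited table holds FPKM values, 1 column for each library, made by the authors from TruSeq Stranded mRNA libraries, per the labels' protocols. Per the submitters' processing notes, CASAVA, TopHat2 2.0.11 and 2 mouse builds, mm9 and mm10, were used, without saying for what. How FPKM were computed, with which annotation and strand setting, is unstated in the sources used here. Of 45772 lines 3527 were blank. Lines of a symbol held the same values and were joined. A gene was kept if 2 or more of the 6 knockout libraries reached 1 FPKM, and log2(FPKM + 1) was fitted with limma 3.58.1 in R 4.3.3, with an intensity trend, a two-sided test and Benjamini-Hochberg adjustment over 12971 genes at 0.05. The fit was tested on simulated data. FPKM holds no read depth, so no counting interval is given. Coordinates of 12.5% of the tested genes overlapped their RefSeq position on GRCm38.p6, so the table's coordinates are of another build.

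Named were Evx1 and Evx1as, the 15 largest rises and falls (passing over 1 rise and 6 falls without an established name: Evx1as itself, 2 Rik clones and 4 XLOC identifiers), up to 6 members of each of 31 lists by size of change, and the 8 largest changes in each direction with EVX1 KO beyond all other libraries. One list's counts are not reported here. Members and lists were chosen with earlier results of these data known. Replicate numbers did not pair the libraries. Alternatives varied the pseudocount, filter, scaling, variance model, libraries and chromosomes.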

Additional observations from a re-analysis of the deposited data

How the results depend on the processing

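Against 2678 calls (1274 higher, 1404 lower), array weights gave 5437 (2630 and 2807) and no filter on low values 1742 (842 and 900), of 23076 genes tested. Only libraries whose protocol gives the tagged day gave 623 (265 and 358), with 1 EVX1 KO library left. Leaving out 1 library gave 1002 to 2422 calls in all, 479 to 1127 higher and 521 to 1310 lower. The share of called genes with both WT libraries nearer EVX1 KO, 66.1%, was 67.9% with no filter, 60.7% with array weights, 68.5% without chromosomes 1, 8 and 14, 44.5% with only libraries of the tagged day and 55.2% to 74.1% leaving out 1 library. A pseudocount of 0.1, a filter of 5 FPKM, all 8 libraries, median-ratio scaling, quantile normalization and no intensity trend kept the count of calls within 1.5 times. The share of TCACAC windows stayed between 14.6% and 17.4%. The cause of these shifts was not tested. Same-numbered libraries did not deviate together (r = 0.013, 0.0722 and −0.102), so the numbers do not pair them; the replicate block gave 2092 calls, 1000 higher and 1092 lower. Of 143 called named genes 88 kept their call under every one of the 16 alternatives chosen at the start that tested them, and none reversed; 120 of the 143 were tested with the filter of 5 FPKM and 110 without the 3 chromosomes. Among the 44 named genes not called in the main fit, 33 were called under at least 1 of these alternatives. The FPKM values carry no depth, so the precision of low values is unknown.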
